A study of Mus musculus with 10 samples.

Results

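The genes examined here encode proteins of DNA replication, DNA repair and the cell cycle in cultured mouse cortical neurons. They were chosen by gene name (the Mcm, Gins, Orc, Pol, Rfc, Lig, Ccn, Cdc, Anapc, Ercc, Rad, Xrcc, Msh and Fanc families), a rule that uses no measured value, and came to 86 of the 8590 genes in the table of rates. Neurons were prepared from cortices of E18 embryos and kept for 14 days in vitro, either wild type or Fmr1-KO (knockout), and both genotypes carried the strain label FVB.129P2-Pde6b+ Tyrc-ch/AntJ. Fmr1 encodes FMRP, an RNA-binding protein whose loss causes fragile X syndrome. Cells received 200 µM 5-ethynyluridine (5-EU), a uridine analogue taken up into new RNA, for 20 or 60 min, and the labelled RNA was then pulled down. Rates of synthesis, processing and degradation per gene were available for 4 labelled libraries, 1 per genotype and labelling time, so the 2 labelling times stood as the 2 replicates of a genotype. The other 6 of the 10 libraries (inputs and pull-downs of unlabelled RNA) have no column of rates of their own. The labels do not say whether the libraries came from separate embryos or cultures, so a p-value measures only the spread between these libraries. Depth is unknown, because no counts were used, and rates are given in the units of the deposited table, whose time unit is not stated.

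Replication starts where the origin recognition complex (the Orc proteins) marks the DNA and loads the ring of Mcm2 to Mcm7, which becomes the replicative helicase when the GINS complex joins it. DNA polymerases then copy the strands, replication factor C (the Rfc proteins) loads their sliding clamp, and ligases seal the nicks. Cyclins and Cdc25 phosphatases switch on the kinases that drive the cycle, and the anaphase-promoting complex, a ubiquitin ligase, destroys cyclins and also acts in neurons that no longer divide. Mature neurons do not replicate their DNA but keep excision, mismatch and break repair. By textbook role the members comprised 12 genes of origin licensing and the helicase, 17 polymerase, clamp loader and ligase genes, 7 cyclin and Cdc25 genes, 13 genes of the anaphase-promoting complex, 12 of excision and mismatch repair, and 13 of break repair, the Fanconi anaemia pathway and checkpoints. A further 12 matched by name only and act elsewhere, such as Ccnt1 and Ccnl1 (cyclins of transcription and splicing), Cdc40 and Cdc5l (splicing), Cdc37 (a chaperone partner) and Cdc73 (transcription elongation). Ccnd2, Rad23b and Xrcc6, which had been listed for description, are not in the rate table.

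Many genes of replication are known targets of E2F transcription factors, which bind octamers of the kind TTTCCCGC, TTTGGCGC, TTTCGCGC and TTTGCCGC. These 4 octamers were searched on both strands, with overlapping matches allowed, in the 300 bases from 250 before to 50 after the annotated start (RefSeq, GRCm38.p6), where 70 of the 86 members had an entry. At least 1 octamer was present for 14 members (20.0%), against 4.81% of the 6677 genes of the rate table with an entry and 2.60% of all 27025 genes with one. The share was 4 of 9 for origin licensing and helicase genes (Mcm3, Mcm5, Mcm6 and Mcm7), 5 of 14 for polymerases, clamp loaders and ligases (Pold1, Pold3, Pole4, Rfc3 and Lig1), 2 of 9 for excision and mismatch repair (Msh3 and Msh6), 1 each for the cyclin and Cdc25 genes (Cdc25a of 5), the anaphase-promoting complex (Anapc15 of 12) and break repair (Fancg of 10), and 0 of 11 for the genes matched by name only. A match is a description of the letters in this window, not a site of binding.

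The promoters of Mcm5 and Mcm7 are shown because these helicase subunits are described for degradation (Mcm5) and processing (Mcm7) below, and each holds 2 matches, here in capitals. The Mcm5 window lies at chr8:75109259-75109558 on the plus strand, where TTTCGCGC starts at -153 and GCGCCAAA overlaps it from -149 relative to the start. The Mcm7 window lies at chr5:138171834-138172133 on the minus strand, with GCGGGAAA from -165 and TTTCGCGC from 17; a second annotated Mcm7 start has none of the octamers in its window.
Mcm5 promoter: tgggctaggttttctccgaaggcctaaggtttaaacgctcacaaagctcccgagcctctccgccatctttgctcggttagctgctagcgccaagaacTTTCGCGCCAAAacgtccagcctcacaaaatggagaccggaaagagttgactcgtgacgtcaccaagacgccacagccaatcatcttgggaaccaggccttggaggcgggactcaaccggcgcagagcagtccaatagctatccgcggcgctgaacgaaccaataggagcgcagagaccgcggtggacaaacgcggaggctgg
Mcm7 promoter: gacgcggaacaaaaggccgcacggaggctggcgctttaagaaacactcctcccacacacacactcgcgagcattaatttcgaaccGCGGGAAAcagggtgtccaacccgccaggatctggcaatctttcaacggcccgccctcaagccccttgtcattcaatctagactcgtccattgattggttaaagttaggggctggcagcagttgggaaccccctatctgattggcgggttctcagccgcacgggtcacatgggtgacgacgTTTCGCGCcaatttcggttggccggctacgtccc

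The knockout was checked on Fmr1 itself. It was made at rates of 0.810 and 0.692 in wild type (20 and 60 min), compared with 2.06 and 1.56 in the knockout, and degraded at 0.0774 and 0.0672 against 2.58 and 2.66. Synthesis divided by degradation was thus 10.5 and 10.3 against 0.800 and 0.586; the labels do not describe the allele, so these rates over the gene do not show which part of it is lost. Of 8 neuron markers Rbfox3 and Gad2 were in the table, which limits the check of the cell label to 2 genes (both with rates in wild type, 1 of them in each knockout library). Of 10 markers of dividing cells 6 were in the table, among them the member Ccna2; all 6 had synthesis rates in wild type and 4 in each knockout library, where Mki67 and Top2a had none. The summed synthesis rate of the 4 with a value in every library was 1.30 and 1.45 in wild type, compared with 2.02 and 1.60 in the knockout, while the wild-type sum over all 6 was 2.20 and 2.31; its part in the results was not tested. The table also held 5 of 8 genes of the oligodendrocyte lineage (5 with a rate in each wild-type library, 1 and 3 in the knockout at 20 and 60 min), 3 of 6 of astrocytes (3 in wild type, 2 and 1 in the knockout), 1 of 5 of fibroblasts, and 0 of 6 each for microglia and for endothelial and mural cells. In each of the neuron, oligodendrocyte and astrocyte lists a single gene had a rate in all 4 libraries, Rbfox3 with 2.77 and 1.24 in wild type against 2.15 and 0.844, Olig2 with 17.96 and 12.6 against 20.2 and 13.8, and Aldh1l1 with 2.11 and 1.11 against 2.76 and 1.23.

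Many members had no degradation rate in the knockout libraries. In wild type 82 of 86 members had a rate above 0 at each labelling time; the knockout had 57 such members after 20 min of labelling and 53 after 60 min. Of the 82 members with both wild-type values, 25 (30.5%) had none in either knockout library, where 19.5% of all such genes had none. These comprised the helicase subunits Mcm2, Mcm3 and Mcm6 and the GINS subunit Gins2; Pola2, Pold2, Poli and Lig4 of the polymerases and ligases; the cyclin genes Ccnd3 and Ccng2; Anapc2, Anapc4, Anapc7, Anapc13 and Cdc16 of the anaphase-promoting complex; Ercc3, Ercc8 and Msh3 of excision and mismatch repair; Rad17, Rad18 and Fancf; and Ccnt2, Cdc37, Cdc40 and Cdc123 of the genes matched by name only. In wild type the degradation rates of this set at 20 and 60 min were 0.173 and 0.141 for Mcm2, 0.153 and 0.126 for Mcm3, 0.209 and 0.0976 for Mcm6, 0.0819 and 0.0293 for Anapc2, and 0.0811 and 0.0505 for Cdc37. By role the share ran from 23.1% (break repair and Fanconi genes, 3 of 13) to 41.7% (the anaphase-promoting complex, 5 of 12). A further 6 members had a rate in 1 knockout library, among them Anapc10, Cdc23, Lig3 and Rad1 at 20 min and Ccnl2 at 60 min. Rfc3, a clamp loader subunit, went the other way, with degradation rates of 0.812 and 0.827 in the knockout and none in wild type. Cdc20, the activator of the anaphase-promoting complex in mitosis, and the polymerase subunits Pold4 and Pole3 had no rate in any library. A missing estimate is no measure of a low or high rate, so the comparisons below cover 51 members for degradation, 52 for synthesis and 46 for processing, each with a rate in all 4 libraries.

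**Figure D1:**
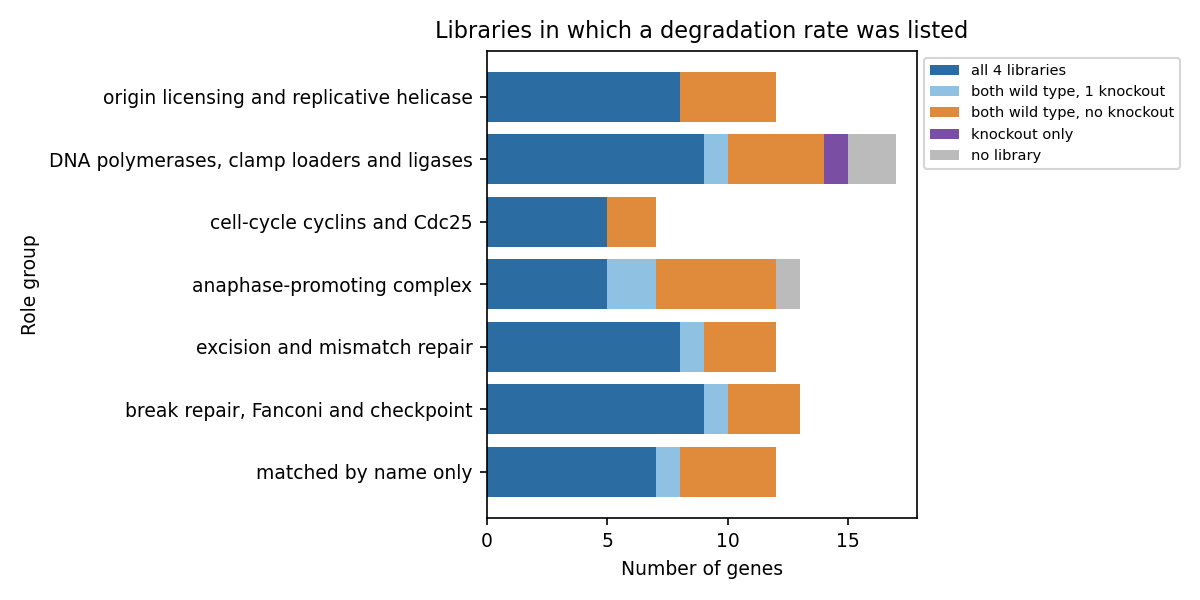
Number of member genes (horizontal axis) by role group (vertical axis), coloured by the libraries in which a degradation rate above 0 was listed. In each of the 7 groups some genes had rates in both wild-type libraries and in neither knockout library, 25 in all, and the anaphase-promoting complex had the largest share, 5 of 12.

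In wild type the members were degraded at median rates of 0.135 and 0.114 (20 and 60 min), near the medians of all genes (0.111 at both times). Fancf, a subunit of the Fanconi anaemia core complex, had the highest degradation rate of the members (1.03 and 0.909 at 20 and 60 min), followed by Ccnl1 at 20 min (0.689) and Lig4 at 60 min (0.741). The lowest were Pold1, the catalytic subunit of polymerase delta, at 20 min (0.0279) and the clamp loader gene Rfc2 at 60 min (0.0170). In the knockout the members had medians of 0.193 and 0.200, where all genes had 0.190 and 0.195. For synthesis the wild-type medians of the members were 0.579 and 0.559, where all genes had 1.06 and 1.02, and the knockout medians were 0.665 and 0.584, where all genes had 1.19 and 1.08. In wild type the cyclin and Cdc25 genes (1.502 and 1.593) and the genes matched by name only (1.09 and 1.24) had medians above those of all genes, and no test was made.

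Degradation rates rose in the knockout for 12 members and fell for 1 (limma adjusted p under 0.05, 51 tested). The 13 calls were 25.5% of the members, where 23.1% of all genes tested were called, so the share was near the background. Rises made up 23.5% of the members against 20.5% of all genes, and the only fall, Ccna2, 1.96% against 2.57%. The median change of the members was 0.76 on the log2 scale, beside 0.65 for all genes (by labelling time, 0.99 after 20 min and 0.70 after 60 min). In 30 members both knockout values lay above both wild-type values and in 5 below, 68.6% together, where the genotypes did not overlap for 69.1% of all genes. The shift was shared by the table, since the median log2 rate of a knockout library lay 0.857 above that of wild type over all genes tested. For the 13 called members the change is given below with and without this shift.

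All 12 rises stayed above 0 after each library was centred on its median (0.65 to 2.54 on the log2 scale), but none passed the test then (adjusted p from 0.0502), and Ccna2 was the only member called (1.61% of all genes called, 0.56% higher and 1.05% lower). Centring did not bring the median change of all genes to 0. It was then -0.20, with 44.5% of genes above 0, beside -0.10 and 45.1% for the members. Signs after centring are therefore to be read against -0.20, not 0. After quantile normalization 4 members were called higher and 1 lower (10.4% of all genes called, 6.3% higher and 4.13% lower). The higher calls were 3 of the 12 rises (Fance, Gins4 and Mcm5) and Rfc2, and the lower call was Ccna2. The other called members did not pass then. With labelling time as a replicate block, which pairs the libraries of equal labelling time, 22 members were called (19 higher, 3 lower), among them all 13, beside 48% of all genes (38.2% higher, 9.76% lower). With the block and centring together 17 were called (9 higher, 8 lower), beside 36.2% of all genes (13.9% higher, 22.4% lower). Of the 9 members gained with the block (Anapc1, Anapc11, Cdc25a, Ercc2, Mcm3ap, Orc2, Orc4, Rfc2 and Xrcc1), Anapc11 and Orc2, both lower, were also called with the block and centring together; Fancm, Pole4 and Rad9a were the called members lost there. The others called there were Anapc16, Ccnt1, Cdc27, Cdc37l1 and Ercc6, all lower (changes of -1.88 to -1.48 after centring, adjusted p from 0.0309 to 0.0375). In the authors' deposited table, of 54 members 18 were higher and 2 lower, beside 36.3% of its genes (29.2% higher, 7.09% lower). These were the 13 with Anapc1, Cdc25a, Ercc2, Mcm3ap, Orc2, Rfc2 and Xrcc1 added. In fits without 1 library, where 1 genotype has a single library and fewer degrees of freedom remain, the median of the members was 0.70 to 0.86, but the calls did not hold in all of them. Without wild type at 20 min 10 members were called (8 of the 13, with Rfc2 and Xrcc1 added; 1112 of 5716 genes), without wild type at 60 min 0 (1 gene), without the knockout at 20 min 0 (150 genes), and without the knockout at 60 min 1, Orc2 (129 genes). At an unadjusted p under 0.05 these fits had 20, 18, 8 and 8 of 51 members, beside 2273, 2163, 764 and 860 of 5716 genes. Synthesis divided by degradation gave the same value at 20 and 60 min (within 0.001 on the log2 scale) for 75 of 82 members in wild type (93.4% of all genes). In the knockout this held for 0 of 52 (0.271% of all genes), so the 2 wild-type libraries do not give independent ratios. For the genes with a shared ratio, the wild-type spread of degradation rates repeats that of synthesis rates. The SEs and p-values of the degradation test rest partly on this spread.

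The helicase and origin genes held 3 of the rises among 8 tested, with a median change of 1.11, or 0.25 after centring. Mcm5, a helicase subunit (chr8:75109569-75128439), had degradation rates of 0.104 and 0.0633 (20 and 60 min) in wild type, compared with 0.645 and 0.602 in the knockout. Both knockout values lay above both wild-type values, a rise of 2.94 (SE 0.396, adjusted p = 0.0235; 2.08 after centring). Gins4, a subunit of the GINS complex (chr8:23226616-23237659), went from 0.0813 and 0.0875 to 0.555 and 0.499, a rise of 2.64 (SE 0.317, adjusted p = 0.0235; 1.78 after centring). Orc5, a subunit of the origin recognition complex (chr5:22486485-22550429), had 0.197 and 0.135 in wild type, compared with 0.827 and 0.708 in the knockout, a rise of 2.23 (SE 0.369, adjusted p = 0.0273; 1.37 after centring). Of the other ring subunits, Mcm4 and Mcm7 had rates in all 4 libraries. Mcm4 had 0.0811 and 0.242 in wild type, compared with 0.111 and 0.190 in the knockout, and Mcm7 had 0.120 and 0.240 against 0.214 and 0.194. In both the genotypes overlapped, and the fitted changes of 0.06 (SE 0.672, adjusted p = 0.957) and 0.26 (SE 0.463, adjusted p = 0.694) did not pass the test and turned below 0 after centring. Orc2 had the lowest value of the 51 members tested, with 0.246 and 0.367 in wild type, compared with 0.00297 and 0.0590 in the knockout (change -4.50, SE 1.51, adjusted p = 0.0946; 0.0285 with the block). In the authors' deposited table its change was -2.06 (adjusted p = 0.0271), and here it was -2.27 with a pseudocount (the 10th percentile of each rate), -2.35 without the knockout at 20 min and -6.66 without the knockout at 60 min. Its 2 knockout libraries differed from each other by more than its wild-type libraries did. Orc4, of the same complex, had 0.179 and 0.139 against 0.387 and 0.351 (change 1.22, SE 0.338, adjusted p = 0.0650; 0.0307 with the block, 0.315 with the block and centring).

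**Figure D2:**
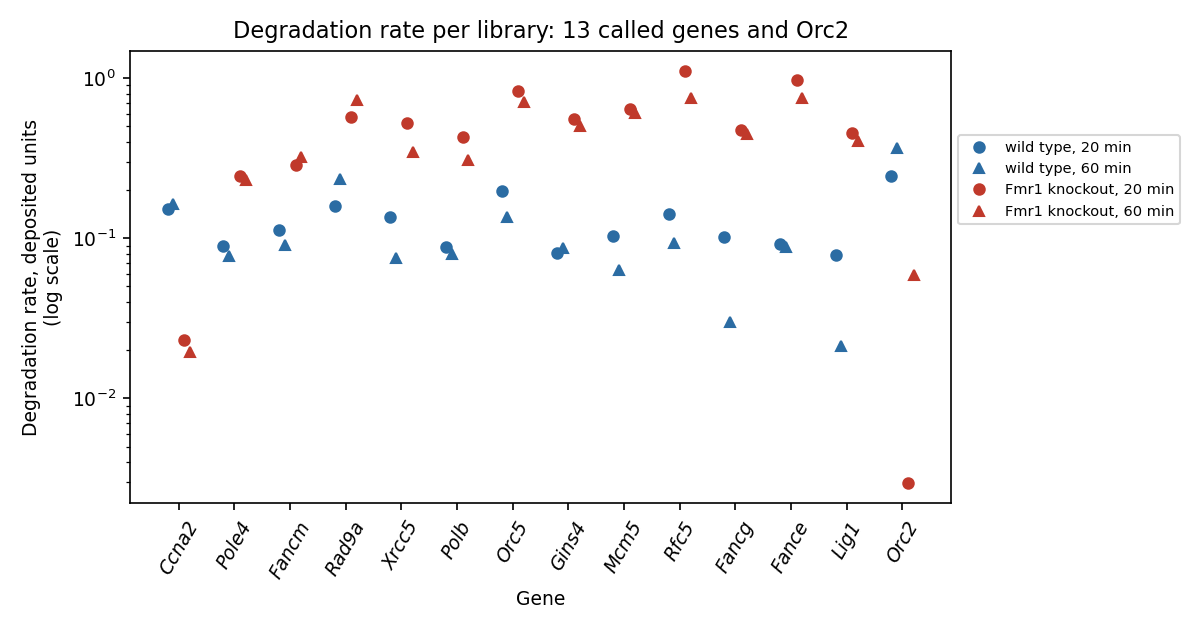
Degradation rate (vertical axis, log scale, deposited units) of the 13 called genes and Orc2 (horizontal axis), with 1 point per library, circles for 20 min and triangles for 60 min of labelling, blue for wild type and red for knockout. The 2 knockout points lie above both wild-type points for 12 genes and below them for Ccna2 and Orc2, and Orc2 at 20 min is the lowest point at 0.00297.

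Polymerase, clamp loader and ligase genes held 4 rises among 9 tested, with a median change of 1.51 (0.65 after centring). Lig1, the ligase that joins Okazaki fragments (chr7:13277283-13311433), had degradation rates of 0.0787 and 0.0212 in wild type, compared with 0.457 and 0.405 in the knockout. Its rise of 3.40 (SE 0.715, adjusted p = 0.0397; 2.54 after centring) was the largest of the members, and its wild-type values differed more between labelling times than its knockout values. The change was 4.34 without wild type at 20 min, 2.45 without wild type at 60 min and 2.38 with the pseudocount. Rfc5, a clamp loader subunit (chr5:117378103-117389047), went from 0.142 and 0.0933 to 1.10 and 0.748, a rise of 2.98 (SE 0.419, adjusted p = 0.0235; 2.12 after centring). Polb, the polymerase of base excision repair (chr8:22628126-22653435), had 0.0880 and 0.0801 in wild type, compared with 0.426 and 0.308 in the knockout, a rise of 2.11 (SE 0.352, adjusted p = 0.0279; 1.25 after centring). Pole4, an accessory subunit of polymerase epsilon (chr6:82618992-82705365), had 0.0899 and 0.0777 against 0.246 and 0.231, a rise of 1.51 (SE 0.321, adjusted p = 0.0403; 0.65 after centring). All 4 genes had knockout values above both wild-type values. The remaining 5 ranged from -0.79 (Rfc1) to 2.13 (Rfc2) and did not pass, Rfc2 with an adjusted p of 0.0632 that became 0.0163 with the block and 0.0578 with the block and centring. Rfc2 also passed after quantile normalization (adjusted p = 0.0469), in the authors' deposited table (adjusted p = 0.00905) and with the pseudocount. Its change was 1.27 after centring, 2.79 without wild type at 20 min and 1.47 without wild type at 60 min.

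Break repair, Fanconi and checkpoint genes held the other 5 rises, among 9 tested. All 9 changes were above 0 with a median of 1.59, but only 5 of 9 after centring (median 0.74) and 6 of 9 after quantile normalization. Fance, of the Fanconi core complex (chr17:28313519-28326572), had degradation rates of 0.0923 and 0.0878 in wild type, compared with 0.969 and 0.748 in the knockout, a rise of 3.24 (SE 0.337, adjusted p = 0.0235; 2.38 after centring). Fancg, of the same complex (chr4:43002343-43010506), had 0.102 and 0.0300 against 0.473 and 0.449, a rise of 3.06 (SE 0.676, adjusted p = 0.0438; 2.20 after centring) that was 3.94 without wild type at 20 min, 2.17 without wild type at 60 min and 2.25 with the pseudocount. Fancm, the DNA translocase that anchors that complex (chr12:65075603-65132058), had 0.112 and 0.0914 against 0.288 and 0.324, a rise of 1.59 (SE 0.331, adjusted p = 0.0385; 0.74 after centring). The 3 Fanconi genes with rates in all 4 libraries thus had both knockout values above both wild-type values. Rad9a, part of the checkpoint clamp (chr19:4195196-4201662), had 0.160 and 0.235 against 0.570 and 0.734, a rise of 1.74 (SE 0.385, adjusted p = 0.0438; 0.88 after centring). Xrcc5, which encodes the Ku80 subunit that binds broken ends (chr1:72307421-72394952), had 0.135 and 0.0756 against 0.525 and 0.344, a rise of 2.07 (SE 0.469, adjusted p = 0.0457; 1.22 after centring). Rad21, the cohesin subunit, had 0.0833 and 0.110 against 0.165 and 0.178; its change of 0.84 (SE 0.342, adjusted p = 0.137) did not pass the test and was -0.01 after centring.

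Among the cyclins, Ccna2 stood apart. This S and G2 phase cyclin (chr3:36564865-36572150) had degradation rates of 0.152 and 0.165 (20 and 60 min) in wild type, compared with 0.0231 and 0.0194 in the knockout. Both knockout values lay below both wild-type values, and the rate fell by 2.90 on the log2 scale, 7.48-fold lower (SE 0.325, adjusted p = 0.0235; -3.76 after centring, adjusted p = 0.0497). With the pseudocount the change was -1.60. Ccnd1, the G1 cyclin, had 0.204 and 0.164 against 0.280 and 0.286 (change 0.63, adjusted p = 0.216), and Ccng1, a target of p53, had 0.101 and 0.146 against 0.174 and 0.192 (change 0.59, adjusted p = 0.277). Neither passed, and both turned below 0 after centring (-0.23 and -0.26). Ccng2 had 0.307 and 0.503 in wild type and no rate in the knockout. Cdc25a, a phosphatase that activates cyclin-dependent kinases, had 0.162 and 0.298 against 0.553 and 0.764 (change 1.56, SE 0.458, adjusted p = 0.0735). Its adjusted p was 0.0214 with the block, 0.113 with the block and centring, and 0.0280 in the authors' deposited table.

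No gene of the anaphase-promoting complex, of excision and mismatch repair or of the set matched by name only passed the degradation test (5, 8 and 7 tested). Their median changes were -0.62, 0.78 and 0.22, and after centring -1.48, -0.08 and -0.64. Anapc11, the RING subunit of the ubiquitin ligase, had 0.206 and 0.0549 in wild type, compared with 0.0360 and 0.00646 in the knockout (change -2.80, SE 1.10, adjusted p = 0.130) and a change of -3.66 after centring. It passed with the block (adjusted p = 0.0133) but not in the authors' deposited table (-1.70, adjusted p = 0.188), and its change was -4.04 without the knockout at 20 min, -1.56 without the knockout at 60 min, -1.85 without wild type at 20 min and -3.75 without wild type at 60 min. Anapc1, the largest subunit of the complex, had 0.0548 and 0.0311 against 0.148 and 0.104 (change 1.59, SE 0.450, adjusted p = 0.0685; 0.73 after centring), and passed with the block (adjusted p = 0.0199) and in the authors' deposited table (adjusted p = 0.0198) but not with the block and centring (adjusted p = 0.108). Of the genes matched by name only, Mcm3ap (change 1.55, adjusted p = 0.0725, change 0.69 after centring) passed with the block (adjusted p = 0.0222) and in the authors' deposited table (adjusted p = 0.02055). It did not pass with the block and centring (adjusted p = 0.133). In excision repair, Xrcc1, the scaffold of single-strand break repair, had 0.121 and 0.0401 against 0.257 and 0.240 (change 1.84, adjusted p = 0.0969), and the TFIIH helicase gene Ercc2 had 0.0656 and 0.0394 against 0.131 and 0.107 (change 1.22, adjusted p = 0.0965). Both passed with the block (adjusted p = 0.0382 and 0.0346) and in the authors' deposited table (adjusted p = 0.0359 and 0.0399). Neither passed with the block and centring (adjusted p = 0.180 and 0.354), and their changes after centring were 0.98 and 0.36. Leaving out wild type at 20 or 60 min gave 2.63 and 1.04 for Xrcc1. The mismatch repair gene Msh6 had a fitted change of 0.93 (adjusted p = 0.258; 0.07 after centring), and the nuclease subunit Ercc1, with 0.190 and 0.0537 against 0.149 and 0.0632, one of -0.06 (adjusted p = 0.964). Without the genes matched by name only, 44 members were tested with the same 12 rises and 1 fall and a median of 0.86.

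**Figure D3:**
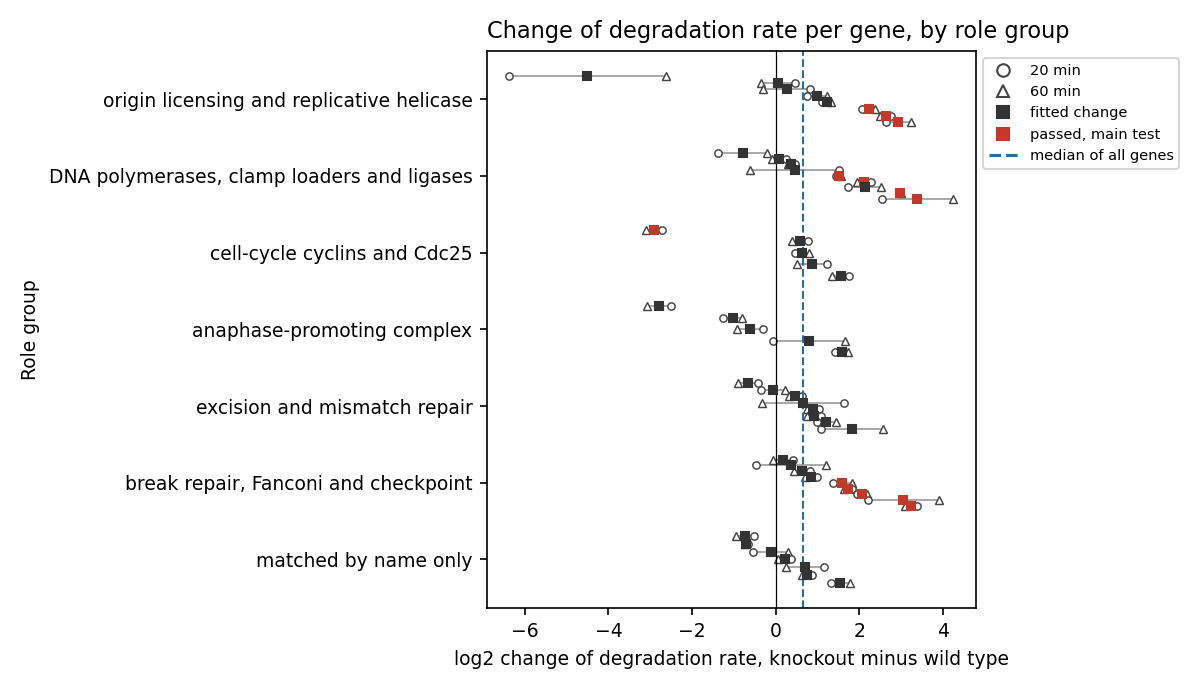
Change of degradation rate in the knockout relative to wild type (horizontal axis, log2) per gene, by role group (vertical axis), with open circles for 20 min, open triangles for 60 min, squares for the fitted change, and red squares for genes that passed the test. The 12 red squares to the right lie in the origin and helicase, polymerase and ligase, and break repair groups, the red square to the left is Ccna2 at -2.90, and the dashed line marks the median of all genes, 0.65.

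Synthesis rates gave no call, with 0 of 52 members passing the limma test, 1 at an unadjusted p under 0.05 (18 of all 5794 genes), and 0 in the authors' deposited table; 0% of all genes passed. The median change was 0.18, beside -0.03 for all genes, and by labelling time 0.27 (20 min) and 0.01 (60 min). It was 0.0961 without the knockout at 20 min and 0.117 with the pseudocount. Of the members that rose in degradation, Mcm5 was made at 0.360 and 0.219 in wild type, compared with 0.384 and 0.284 in the knockout, values that overlapped. Gins4 had the largest positive change in synthesis, from 0.338 and 0.364 to 0.742 and 0.565 (0.89, SE 0.398, adjusted p = 1.00). Xrcc4, a partner of Lig4 in end joining, had the largest negative change, from 0.401 and 0.526 to 0.204 and 0.175 (-1.28, SE 0.403, adjusted p = 1.00). Ccna2, whose degradation fell, had synthesis rates of 0.550 and 0.596 against 0.649 and 0.635. In RNA from whole cultures, fewer cells that express a gene and less RNA per cell cannot be told apart.

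The ratio of synthesis to degradation rate stands for the RNA level a gene would hold if making and decay were in balance. Over the 51 members with all rates it was lower in the knockout for 38 at 20 min (median log2 difference -0.73) and for 37 at 60 min (-0.63), beside 67.7% of all genes at each time (medians -0.60 and -0.63). With every member that had both rates of a given time, the medians were -0.52 (56 members) and -0.60 (52 members). For Mcm5 the ratio was 3.46 at both times in wild type, compared with 0.594 and 0.471 in the knockout, and for Lig1 3.92 and 3.88 against 0.524 and 0.206. Ccna2 went the other way, from 3.62 at both times to 28.1 and 32.8. These ratios were not tested, because wild type offers no independent spread.

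For processing, the rate at which introns are removed, 0 of 46 members passed the limma test, with 9 at an unadjusted p under 0.05 (783 of all 5082 genes), 0 in the authors' deposited table, and 0% of all genes called. The members were split evenly, 23 above and 23 below 0 with a median of 0.00, where the median of all genes was -0.36. After centring, which removed a shift of -0.349 between the median log2 rates of knockout and wild type over all genes tested, the members' median was 0.35. Synthesis divided by processing was also the same at both times in wild type for 74 of 74 members (100% of all genes), against 2 of 47 in the knockout (5.81% of all genes). The wild-type spread of processing rates thus repeats that of synthesis rates, and the p-values for processing rest partly on it. The genotypes did not overlap for 22 members (47.8%), beside 46.6% of all genes. With labelling time as a block 14 members (30.4%) passed, 7 higher and 7 lower, beside 25.6% of all genes. Higher calls were 15.2% of the members where 6.26% of all genes were called higher, and lower calls 15.2% where 19.3% were; the difference between members and other genes was not tested. With the block and centring together 8 were higher and 3 lower, beside 7.14% and 6.4% of all genes (13.5% together).

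The higher calls under the block lay in helicase, polymerase and break repair genes. Gins4 had processing rates of 2.23 and 2.40 in wild type, compared with 36.1 and 28.7 in the knockout, a difference of 3.80 (adjusted p = 0.00752 with the block, 0.100 without it). Mcm7 had 0.802 and 1.60 against 9.05 and 8.47 (2.95, adjusted p = 0.0102 with the block, 0.109 without it). Its change was 2.17 in the authors' deposited table and 1.76 with the pseudocount, which gave 2.99 for Gins4. In both genes the knockout values lay far above both wild-type values. Fance (1.70), Polg (the mitochondrial polymerase, 1.34), Rad50 (of the complex that senses broken ends, 1.10), Orc5 (0.93) and Rfc2 (0.90) were the other higher calls. With the block in both rates, Gins4, Fance, Orc5 and Rfc2 were called higher in degradation and in processing. Mcm5 was not among them, with 9.48 and 5.78 against 8.31 and 6.10.

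Lower calls under the block were led by Anapc15, a small subunit of the anaphase-promoting complex, with 17.5 and 5.13 in wild type, compared with 0.355 and 0.239 in the knockout (-5.02, adjusted p = 0.00752 with the block, 0.102 without it). Ercc1 had 43.1 and 12.2 against 4.34 and 0.987 (-3.47, adjusted p = 0.00752 with the block, 0.192 without it), although its degradation rates overlapped between genotypes. With the pseudocount the changes were -2.36 and -2.54, and without single libraries -5.91 to -4.14 for Anapc15 and -4.54 to -2.40 for Ercc1. Both genes had both knockout values below both wild-type values. Lower calls also included Anapc11 (-1.55), Xrcc4 (-1.51), Orc2 (-1.36) and Rad54l2 (-0.998), none of which passed with the block and centring together (adjusted p = 0.115, 0.0542, 0.0530 and 0.110). Medians by role ran from 0.92 for origin and helicase genes, 0.52 for cyclins (5 of 5 above 0) and 0.30 for polymerases to -0.00 for break repair, -0.53 for the anaphase-promoting complex, -0.55 for excision and mismatch repair (6 of 7 below 0) and -0.81 for the genes matched by name only. After centring the break repair median was 0.35, and the 3 groups with medians under -0.5 kept medians below 0 (-0.18, -0.20 and -0.46).

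**Figure D4:**
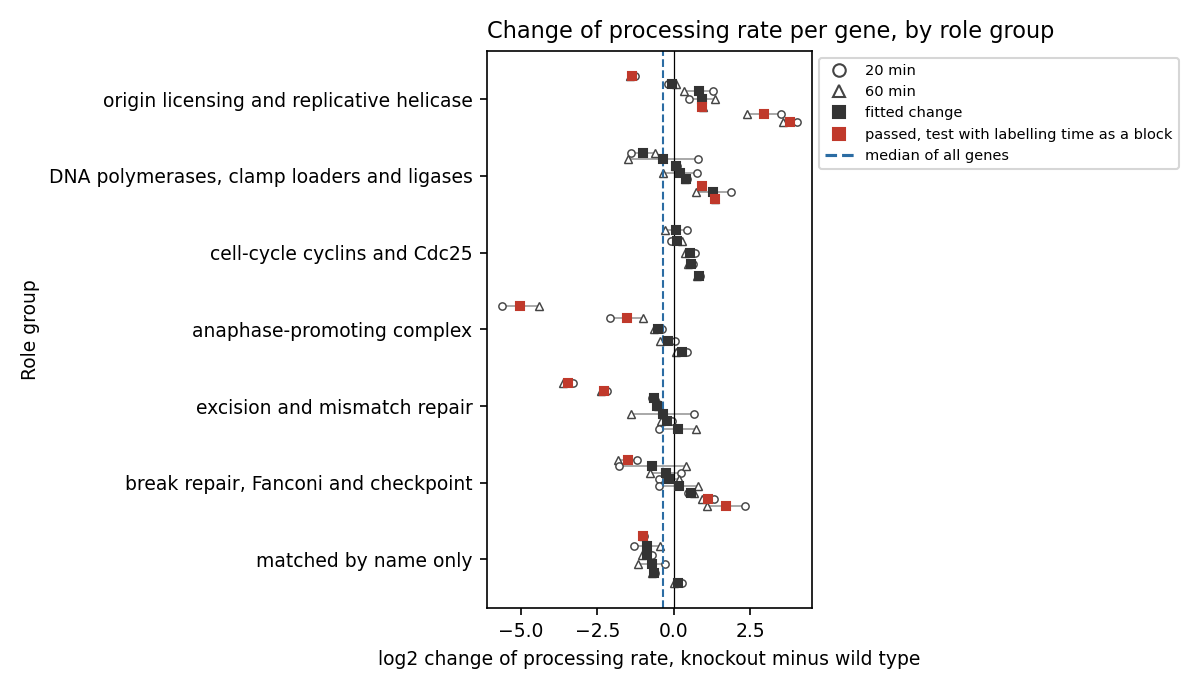
Change of processing rate in the knockout relative to wild type (horizontal axis, log2) per gene, by role group (vertical axis), with open circles for 20 min, open triangles for 60 min, squares for the fitted change, and red squares for the 14 genes that passed with labelling time as a block (none passed without it). Gins4 and Mcm7 lie farthest to the right at 3.80 and 2.95, Anapc15 and Ercc1 farthest to the left at -5.02 and -3.47, and the dashed line marks the median of all genes, -0.36.

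Set against the promoter octamers, the 10 tested members with a match had a median degradation change of 1.22, all 10 above 0 and 4 called higher (Mcm5, Pole4, Lig1 and Fancg). The 30 tested members with an entry but no match had a median of 0.63, with 20 above 0 and 5 called higher, and of all genes tested 68.1% were above 0 and 20.5% called higher. After centring the medians were 0.36 and -0.23, with 6 of 10 and 12 of 30 above 0 and 0 called in either set. For all genes the centred median was -0.20, with 44.5% above 0. For synthesis the medians were 0.21 with a match and 0.13 without. These are descriptions of 2 unequal sets and no test was made.

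Other genes of these pathways, from a list of 92 whose names the choice of members does not match, were described beside the members. Of these, 59 were in the table and 57 had degradation rates in both wild-type libraries, 19 of them (33.3%, beside 19.5% of all such genes) in neither knockout library. For degradation, 8 of 35 tested rose and 0 fell, beside 20.5% and 2.57% of all genes, with a median of 1.07 (0.21 after centring, when 0 passed). With the block 16 were higher and 4 lower, beside 38.2% and 9.76% of all genes. The rises included Xpc (1.54) of nucleotide excision repair, the helicase gene Recql5 (3.09), Rpa3 (2.45) of the single-strand binding complex, Fzr1 (1.87), which activates the anaphase-promoting complex outside mitosis, the inhibitor gene Cdkn1a (1.73), the damage kinase gene Atm (1.71) and E2f1 (1.61). None of 35 passed for synthesis (median 0.20) and none of 33 for processing (median -0.28), where with the block 4 were higher and 8 lower, beside 6.26% and 19.3% of all genes.

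Several members share sequence with a neighbour in the annotation (GENCODE M21, GRCm38), and whether reads were counted by strand is not stated, so reads of the partners may not be separable. Mcm7 overlaps Cops6 and Ap4m1 and hosts Mir25, Mir93 and Mir106b, Ccna2 overlaps Exosc9, Orc2 Nif3l1, Rfc5 Wsb2, Lig1 Zswim9, Rad9a Ppp1ca, Ercc1 Cd3eap, Anapc15 Folr1 and Tomt, Polg Fanci, and Rfc2 Lat2. Orc5, Polb, Pole4, Fance and Fancm overlap genes annotated as noncoding, pseudogene or unverified, and Mcm5, Gins4, Fancg and Xrcc5 overlap no annotated gene.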

How the data were processed

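Rates were measured in the 4 labelled libraries. The authors deposited 1 table of linear synthesis, processing and degradation rates, named for INSPEcT per the labels, whose time unit and use of the fly and yeast spike-ins are not given in the sources used here. They also deposited 1 limma table per rate, whose log2 fold changes and mean log2 rates, p-values and adjusted p-values, and score columns (moderated statistic and log odds, not used) are named per the file headers. The submitters' processing notes name cutadapt, Bowtie2, TopHat2, HISAT2 and limma and the builds mm10, dm6 and sacCer3, with no role or order. Unused columns of sample values numbered 0.

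Genes with a rate above 0 in all 4 libraries were tested on log2 rates without a pseudocount by limma (3.58.1, R 4.3.3; lmFit, eBayes without trend, two-sided), with Benjamini-Hochberg adjustment over all genes tested (5794 for synthesis, 5082 for processing and 5716 for degradation) and a threshold of 0.05. The fits were checked on simulated rates. Libraries of equal labelling time were paired because the labels name equal times in both genotypes. As a description over genes, Spearman correlations between genotypes of the 20 to 60 min difference were 0.735 (synthesis), 0.735 (processing) and 0.652 (degradation); values with the block are printed where they change a call. The rule for members uses gene names alone, but it, the lists, roles and tests were set with earlier results of these data known. Named genes were the called members, the largest change each way per rate, a listed set given whatever its values, the extremes of degradation in wild type, and Fmr1; Anapc11, Rfc2 and others named beside counts were chosen after their values were seen. Alternatives were the block, centring, quantile normalization, the block with centring, a filter at the 25th percentile of mean log2 rate, a pseudocount (the 10th percentile of each rate), eBayes with a trend, the deposited tables and leaving out each library; calls from 3 libraries were added after seeing the data. A few items are not reported here.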

Additional observations from a re-analysis of the deposited data

Results flagged for a closer look

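For 10 of the 51 members tested (19.6%, beside 11.6% of all genes) the log2 change of the degradation rate had opposite signs at 20 and 60 min. The difference between the times was not tested, since each genotype has 1 library per time. The change was above 0 at 20 min and below 0 at 60 min for 6 of them. Pold1 had 1.53 and -0.60 (difference 2.13), Ercc5 1.64 and -0.32 (1.96), Mcm7 0.84 and -0.31 (1.15), Mcm4 0.45 and -0.34 (0.80), Xrcc4 0.42 and -0.06 (0.49) and Polg 0.24 and -0.08 (0.32). The reverse held for 4. Anapc15 had -0.06 and 1.66 (-1.72), Rad52 -0.47 and 1.20 (-1.67), Cdc5l -0.53 and 0.31 (-0.84) and Ercc1 -0.35 and 0.23 (-0.58).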

How the results depend on the processing

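Members called for degradation (13) numbered 22 with labelling time as replicate block, 1 after centring, 5 after quantile normalization, 20 (18 higher, 2 lower of 54) in the authors' deposited table, 17 with the block and centring (9 higher, 8 lower), 17 with the pseudocount, 14 with the trend and 13 of 41 with the filter, where Ccna2 was filtered out (33.2%, 28.1% and 32.1% of all genes). Without single libraries, from fits in which a lone library is assumed to vary like the other genotype, 0 to 10 were called. All 13 kept their call under the block, the pseudocount, the trend and the deposited table, 10 with the block and centring, 4 after quantile normalization and 1 after centring. The median degradation change (0.76) was -0.10 centred (-0.0967, also with the block) and 0.0447 after quantile normalization. For all genes these medians were -0.20 and -0.065. Role groups with a degradation median above 0 numbered 3 of 7 after centring, with and without the block, against 6. For processing, 14 members were called with the block and 11 (8 higher, 3 lower) with the block and centring, and 0 to 3 without single libraries (1 to 95 of 5082 genes); the median (0.00) was 0.351 centred, with and without the block, 0.325 after quantile normalization, 0.0619 with the filter and, without single libraries, -0.178 to 0.184 (wild type left out at 20 and 60 min 0.0864 and -0.178, knockout -0.0943 and 0.184). The 20 min ratio of synthesis to degradation rate had a median of -0.524 over all members with both rates of that time. Synthesis gave 0 members under every alternative. Counting only rates above 0.001 as listed changed no count of members.

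Signs turned for named degradation changes that had not passed. Centring, with and without the block, gave -0.23 for Ccnd1, -0.26 for Ccng1, -0.80 for Mcm4, -0.59 for Mcm7 and -0.015 for Rad21, and quantile normalization gave -0.24, -0.23, -0.63 and -0.54 for the first 4. The median of all genes was -0.20 after centring and -0.065 after quantile normalization. Without the 20 min wild-type library Mcm4 was -0.73, Mcm7 -0.24 and Ercc1 0.85, and without the 60 min knockout library Mcm4 was -0.33 and Ercc1 0.56. Of all values of named genes under alternatives, 251 kept direction and side of the threshold, 68 lost and 26 gained a call in the same direction, and 19 turned. The cause of these shifts was not tested. Without counts, what depth limits cannot be stated.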
